A study of Mus musculus with 4 samples.

Results

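Collagens and the fibrous matrix around them are the scaffold of connective tissue, and in the cortex they were measured through 72 genes of 20832 with a symbol on the arrays. The genes were chosen by name: each collagen alpha chain and laminin chain, the proteoglycans Dcn, Lum, Ogn, Bgn and Fmod, and the matrix genes Mgp, Fn1, Fbln1, Fbln2, Fbn1, Eln, Lox, Loxl1, Nid1, Nid2, Hspg2, Tnc and Postn. They were read by 101 probes. A probe was tested where at least 1 colour channel rose well above background on each of the 4 arrays, which left 76 probes of 62 genes.

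Fibrillar collagens are triple helices that assemble into the tensile fibres of connective tissue, types I and III being the usual ones of soft tissue. Small leucine-rich proteoglycans sit on those fibres and govern their spacing and thickness. Basement membranes are sheets of type IV collagen, laminins, nidogens and perlecan that lie under endothelium, around smooth muscle and at the brain surface. In the brain, fibrous matrix is sparse in the tissue itself and is made mostly by fibroblasts of the meninges and around larger vessels, while basement membrane is made by vascular cells and astrocytes as well.

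The mice were Ndrg2-/- or wild type, all of them males of C57BL/6N background and aged 3 months. The product of Ndrg2, a member of the NDRG family, is found in the brain mostly in astrocytes. Each of 4 arrays carried 1 Ndrg2-/- cortex RNA in Cy5 and 1 wild-type cortex RNA in Cy3, with no exchange of dyes, so genotype and dye cannot be told apart. The labels state neither the cells in which Ndrg2 was deleted nor whether a sample was 1 animal or a pool, so p-values reflect no more than the spread seen here, which may be technical.

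Each value below is a log2 ratio of Ndrg2-/- over wild type unless it is called an intensity, with its SD over the 4 arrays after ±. Calls were made in limma at 0.05 after Benjamini-Hochberg adjustment over 27664 probes, and a gene is given by its brightest tested probe. The median signal of a spot was 283 to 336 in the Ndrg2-/- channel and 94 to 122 in the wild-type channel, and 71.2% to 74.0% of probes stood well above background per channel. The number of arrays limits the precision. The targeted gene, Ndrg2, had ratios of 0.11, 0.37, 0.40 and 0.38 on arrays 1 to 4 and was higher in the samples labelled Ndrg2-/- (mean 0.32 ± 0.14, adjusted p 0.0173), a call lost without array 2 or array 3. Which part of the gene was removed is not stated, so its probe may check nothing, and each direction below rests on the labels.

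Of the 62 tested matrix genes, 16 rose in Ndrg2-/- cortex, 1 fell and 45 did not pass. The share that rose was 25.8%, against 9.1% of all 15759 genes tested, and the share that fell was 1.61%, against 5.84%. Counted by probe, 18 of 76 rose (23.7%), against 7.39% of all probes, and 1 fell, against 5.54%. The genes that rose were Lum, Mgp, Col1a1, Dcn, Col3a1, Col1a2, Fmod, Nid1, Loxl1, Lama1, Fn1, Col4a5, Lamc3, Fbln2, Eln and Col6a2, and the gene that fell was Col16a1. The changes were small: no matrix gene reached 1.5 fold on all 4 arrays, the study's own limit, which 0.0444% of all genes passed upward and 0.0508% downward. Ratios lay above 0 on all 4 arrays in 25 of the 62 genes (40.3%), against 24.1% of all genes, and below 0 on all 4 in 4 genes, against 18.6%. The count of genes that rose was 4 without array 1, 5 without array 2, 11 without array 3 and 8 without array 4, and it was 5 with the scanner software's processed signals. Calls were lost over all probes too. The share of all probes called higher was 2.18%, 1.57%, 2.73% and 5% without arrays 1 to 4, and 4.16% with the processed signals. Col1a2, Loxl1, Lum and Fmod passed with each array left out in turn.

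**Figure D1:**
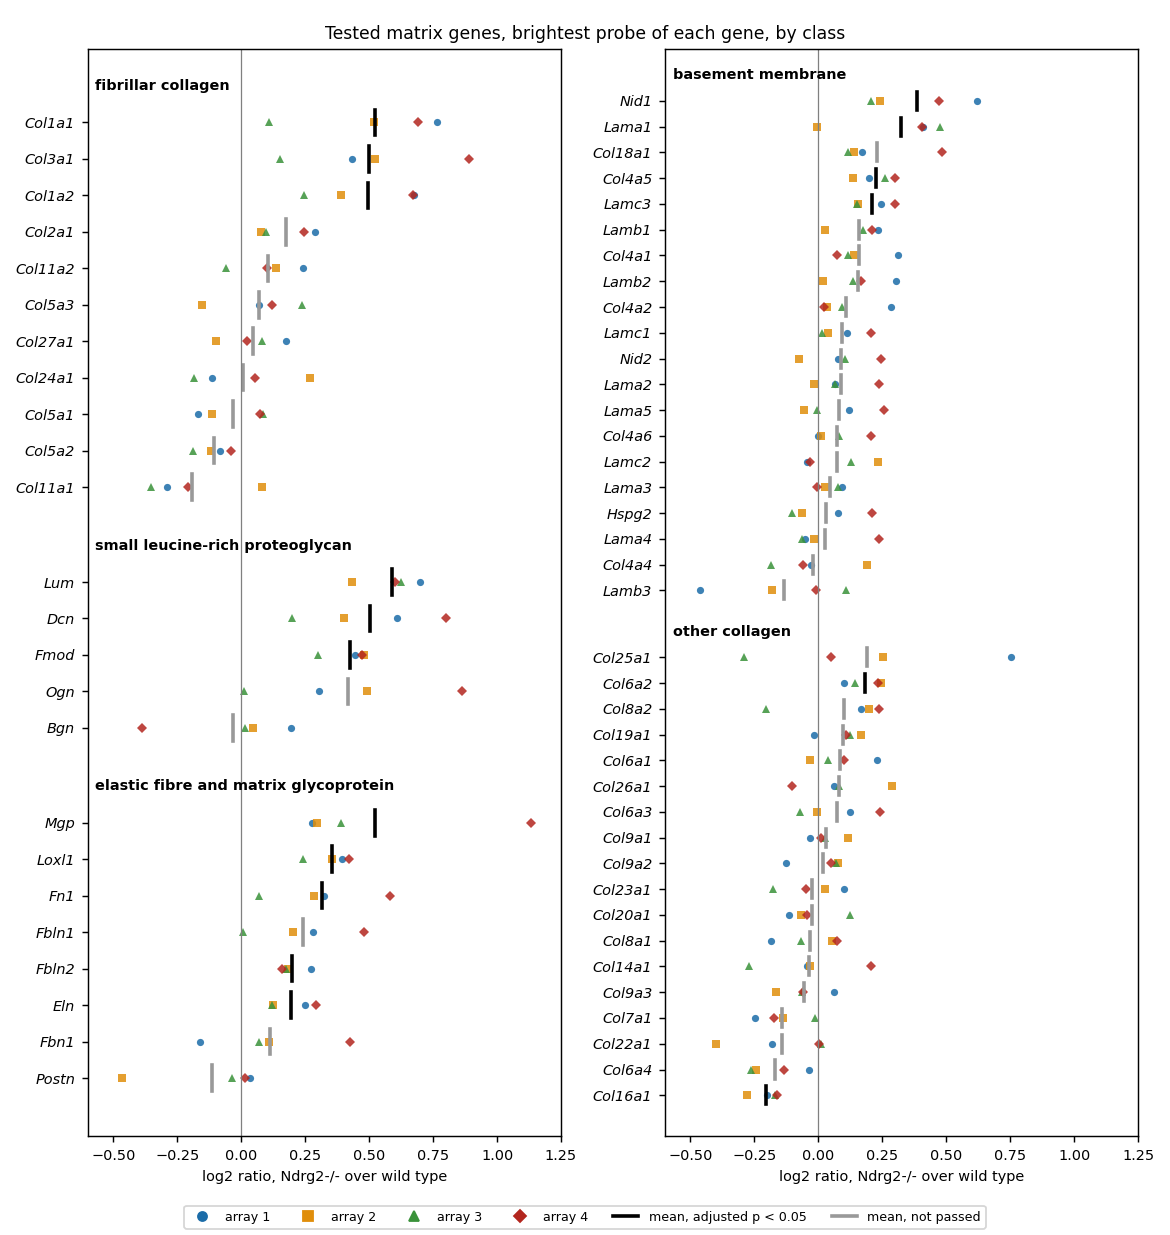
Log2 ratio (Ndrg2-/- over wild type, x axis) of the brightest tested probe of each of the 62 matrix genes, grouped by class. Markers are the 4 arrays and bars the means, black where the adjusted p was under 0.05. The black bars of the fibrillar collagens belong to Col1a1, Col3a1 and Col1a2, and the array 3 marker is the lowest of the 4 for each of these.

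Among 11 fibrillar collagen genes, 3 rose, none fell and 8 did not pass. The 3 were the chains of type I collagen, Col1a1 and Col1a2, which form 1 triple helix together, and Col3a1, the single chain of type III. Col1a1 had normalized intensities of 607, 722, 916 and 952 in the Ndrg2-/- samples of arrays 1 to 4, against 357, 503, 849 and 589 in the wild-type samples. The Ndrg2-/- sample was the brighter one on each array, but the groups overlapped because the wild-type sample of array 3 was brighter than the Ndrg2-/- samples of arrays 1 and 2. Its ratios were 0.77, 0.52, 0.11 and 0.69, with a mean of 0.52 ± 0.29 (adjusted p 0.0201).

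Col1a2 stood at intensities of 2139, 2436, 3563 and 3717 in Ndrg2-/- samples, against 1339, 1861, 3005 and 2332 in wild-type samples. Its ratios were 0.68, 0.39, 0.25 and 0.67, with a mean of 0.50 ± 0.21 (adjusted p 0.0113). As with Col1a1, arrays 3 and 4 held the brightest Ndrg2-/- samples and array 3 the brightest wild-type sample. Col3a1 stood at 243, 300, 380 and 454 in Ndrg2-/- samples, against 180, 209, 342 and 245 in wild-type samples. Its ratios were 0.43, 0.52, 0.15 and 0.89, with a mean of 0.50 ± 0.31 (adjusted p 0.0244). The 3 chains were thus alike in size, at 1.44, 1.41 and 1.41 fold for Col1a1, Col1a2 and Col3a1, and each had its smallest ratio on array 3. Col1a1 missed the threshold without array 1, 2 or 4 (highest adjusted p 0.0839) and Col3a1 without array 1 or 2 (highest adjusted p 0.0969).

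None of the other fibrillar chains was called. Col5a1, Col5a2 and Col5a3 encode type V collagen, which nucleates type I fibres, and stood at -0.03 ± 0.13, -0.11 ± 0.06 and 0.07 ± 0.16 (adjusted p 0.741, 0.124 and 0.502). Their 95% intervals were -0.16 to 0.10 for Col5a1, -0.20 to -0.01 for Col5a2 and -0.08 to 0.22 for Col5a3. Col5a2 lies next to Col3a1 on chromosome 1, and its interval did not reach the mean of its neighbour. The Col5a2 probe was dim, with 94.4% of tested probes as bright or brighter, so this contrast rests on a weak signal. The cartilage collagen genes Col2a1, Col11a1 and Col11a2 stood at 0.18 ± 0.10, -0.19 ± 0.19 and 0.11 ± 0.12, and Col24a1 and Col27a1 at 0.01 ± 0.20 and 0.04 ± 0.12, none of them called. The probes of Col2a1 and Col27a1 were dim too, with 86.7% and 85.3% of tested probes as bright or brighter.

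Promoter sequence is shown for 4 genes of 3 classes that rose, so that the start regions can be set side by side. Each line gives the 250 bases before the annotated start in RefSeq (GRCm38.p6), 5′ to 3′ on the gene's plus strand, with 3 motifs on either strand in capitals, namely the TATA box TATAAA, the box named CCAAT and the GC box core GGGCGG. The windows are chr1:45311288-45311537 for Col3a1, chr6:4505368-4505617 for Col1a2, chr1:134037004-134037253 for Fmod and chr13:13437352-13437601 for Nid1.
Col3a1: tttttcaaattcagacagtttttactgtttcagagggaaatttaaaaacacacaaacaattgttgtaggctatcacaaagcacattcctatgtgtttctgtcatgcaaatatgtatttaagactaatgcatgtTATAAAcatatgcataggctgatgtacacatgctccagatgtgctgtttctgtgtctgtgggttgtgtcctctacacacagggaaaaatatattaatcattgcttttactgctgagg
Col1a2: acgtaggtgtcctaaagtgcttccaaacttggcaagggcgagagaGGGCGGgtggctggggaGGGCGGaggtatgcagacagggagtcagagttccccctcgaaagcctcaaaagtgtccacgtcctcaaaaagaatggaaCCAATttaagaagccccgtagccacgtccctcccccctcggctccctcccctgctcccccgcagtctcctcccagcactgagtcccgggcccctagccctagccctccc
Fmod: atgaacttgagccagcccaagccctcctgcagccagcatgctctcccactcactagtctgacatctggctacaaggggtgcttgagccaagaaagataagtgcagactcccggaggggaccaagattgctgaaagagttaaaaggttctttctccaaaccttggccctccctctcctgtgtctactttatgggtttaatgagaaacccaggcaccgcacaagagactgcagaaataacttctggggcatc
Nid1: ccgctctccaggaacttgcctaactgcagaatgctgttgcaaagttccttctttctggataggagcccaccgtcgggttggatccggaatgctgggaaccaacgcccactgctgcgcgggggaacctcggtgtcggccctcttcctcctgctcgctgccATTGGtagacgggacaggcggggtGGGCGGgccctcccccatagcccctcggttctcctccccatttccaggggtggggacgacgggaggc
Col3a1 held a TATAAA that begins at position -117, counted back from the start, and neither of the other motifs. Col1a2 held a CCAAT at -109 and GGGCGG at -205 and -188. Nid1 held a CCAAT on the reverse strand at -91 and a GGGCGG at -67, and Fmod held none of the 3. CCAAT and GGGCGG were thus present in both Col1a2 and Nid1, and no motif was present in all 4 windows.

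Windows were given for 42 of the 62 tested genes (48 windows), 7 of them genes that rose (8 windows). TATAAA occurred in 12.5% of the windows of genes that rose, 8.33% of those of tested matrix genes and 12.4% of 32851 windows of all genes. For CCAAT the shares were 37.5%, 29.2% and 33.8%. For GGGCGG they were 75.0%, 58.3% and 32.7%. A match describes these letters and not a bound site.

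Of 5 small leucine-rich proteoglycan genes, 3 rose and the other two did not pass. Lum encodes lumican, a keratan sulfate proteoglycan that binds fibrillar collagen. Its intensities were 374, 389, 547 and 457 in Ndrg2-/- samples, against 231, 289, 355 and 301 in wild-type samples. The groups did not overlap, and the ratios of 0.70, 0.43, 0.63 and 0.60 gave the largest mean among the matrix genes tested, 0.59 ± 0.11 or 1.50 fold (adjusted p 0.00112). Fmod, which encodes fibromodulin, another collagen-binding keratan sulfate proteoglycan, had 394, 430, 554 and 549 in Ndrg2-/- samples, against 289, 308, 450 and 395 in wild-type samples. Its ratios of 0.44, 0.48, 0.30 and 0.47 were close to each other, with a mean of 0.42 ± 0.09 (adjusted p 0.00294), although the groups' intensities overlapped.

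Dcn encodes decorin, which coats type I fibres and carries 1 chondroitin or dermatan sulfate chain. Its intensities were 2191, 2482, 3724 and 3746 in Ndrg2-/- samples, against 1435, 1880, 3242 and 2151 in wild-type samples. The ratios of 0.61, 0.40, 0.20 and 0.80 gave 0.50 ± 0.26 (adjusted p 0.0173), a call that was lost without array 1 or array 2 (highest adjusted p 0.0655). Dcn and Lum lie next to each other on chromosome 10. Dcn was lowest on array 3, where Lum stood at 0.63, so the neighbours did not share that feature.

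Ogn, which encodes osteoglycin (mimecan), had ratios of 0.31, 0.49, 0.01 and 0.86 and a mean of 0.42 ± 0.36 (adjusted p 0.0582). It passed without array 3 (0.55, adjusted p 0.0377). Its intensities were 627, 721, 1008 and 1148 in Ndrg2-/- samples, against 507, 512, 999.5 and 630 in wild-type samples, so that the pair of samples on array 3 hardly differed. Biglycan (Bgn), the closest relative of decorin, did not follow the others, with ratios of 0.20, 0.05, 0.01 and -0.39 and a mean of -0.03 ± 0.25 (95% interval -0.24 to 0.17, adjusted p 0.825). Its wild-type sample on array 4 stood at 487, above 336, 345 and 356 on arrays 1 to 3, and its Ndrg2-/- samples at 384, 356, 360 and 372. Without array 4 the mean of Bgn was 0.08, and under median centring of the arrays it was 0.16, below the median of all genes in that run.

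Of 8 tested genes of elastic fibres and matrix glycoproteins, 5 rose, none fell and 3 did not pass. Mgp, which encodes matrix Gla protein, an inhibitor of calcification, had intensities of 2779, 2998, 4603 and 5748 in Ndrg2-/- samples, against 2296, 2442, 3513 and 2621 in wild-type samples. Its ratios were 0.28, 0.30, 0.39 and 1.13, with a mean of 0.52 ± 0.41 (adjusted p 0.0446). Array 4 stood apart from the others, and without it the mean was 0.32 (adjusted p 0.0191). The call was lost without array 1, 2 or 3 (highest adjusted p 0.0969).

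Fn1 encodes fibronectin, the adhesive glycoprotein on which collagen fibres are laid down. Its intensities were 3548, 3723, 4193 and 4914 in Ndrg2-/- samples, against 2834, 3055, 4001 and 3286 in wild-type samples. The ratios were 0.32, 0.29, 0.07 and 0.58, with a mean of 0.31 ± 0.21 (adjusted p 0.0374). Again the smallest ratio was that of array 3, and the groups overlapped. Loxl1, a lysyl oxidase that cross-links elastin, stood at 213, 212, 248 and 244 in Ndrg2-/- samples, against 162, 166, 209 and 182 in wild-type samples. These groups did not overlap, and the mean was 0.35 ± 0.08 (adjusted p 0.00536).

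The elastic fibre genes Eln (tropoelastin) and Fbln2 (fibulin-2) rose by less and stood at 0.20 ± 0.09 (adjusted p 0.0342) and 0.20 ± 0.05 (adjusted p 0.0230). Fbln1 stood at 0.24 ± 0.20 (adjusted p 0.0646), with a ratio of 0.01 on array 3, and passed without that array (0.32, adjusted p 0.0482). Fbn1, which encodes the microfibril protein fibrillin-1, was at 0.11 ± 0.24, and Postn, which encodes periostin, at -0.11 ± 0.24. Fn1 missed the threshold without array 1, 2 or 4 (highest adjusted p 0.117), Fbln2 without array 1, 2 or 3 (highest 0.0871) and Eln with any 1 array left out (highest 0.109). Lox, the lysyl oxidase of fibrillar collagen, and the glycoprotein gene Tnc were too dim to be tested.

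Of 20 tested basement membrane genes, 4 rose, none fell and 16 did not pass. Nid1 encodes nidogen-1, which links the laminin and collagen IV networks. Its intensities were 635, 572, 687 and 715 in Ndrg2-/- samples, against 413, 485, 596 and 515 in wild-type samples. The ratios of 0.62, 0.24, 0.21 and 0.47 gave a mean of 0.38 ± 0.20 (adjusted p 0.0192). The Ndrg2-/- sample of array 2 was dimmer than the wild-type sample of array 3, so the groups overlapped. Its relative Nid2 stood at 0.09 ± 0.13 (adjusted p 0.319). Nid2 was the single matrix gene on chromosome 14, which carries Ndrg2.

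Lama1, the laminin alpha chain of early and meningeal basement membranes, had intensities of 674, 705, 1083 and 881 in Ndrg2-/- samples, against 508, 708, 778 and 666 in wild-type samples. The ratios were 0.41, -0.01, 0.48 and 0.40, with array 2 alone near 0, and the mean was 0.32 ± 0.22 (adjusted p 0.0392). Without array 2 it was 0.43 (adjusted p 0.0161), and without array 1, 3 or 4 the call was lost (highest adjusted p 0.126). Lamc3, a laminin gamma chain, stood at 0.21 ± 0.07 (adjusted p 0.0233), and Col4a5, a type IV chain encoded on the X chromosome, at 0.22 ± 0.07 (adjusted p 0.0202). Both were lost with any 1 array left out, with adjusted p-values of 0.0563 to 0.0784 for Lamc3 and 0.0507 to 0.0808 for Col4a5. Nid1 missed the threshold narrowly without array 1, 2 or 4 (highest adjusted p 0.0572).

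The chains that make up most vascular basement membrane changed little. Col4a1 had intensities of 950, 976, 1006 and 993 in Ndrg2-/- samples, against 766, 885, 929 and 946 in wild-type samples. These groups did not overlap, yet the ratios of 0.31, 0.14, 0.12 and 0.07 gave 0.16 ± 0.11 (95% interval 0.04 to 0.27) and missed the threshold (adjusted p 0.0732). Col4a2, its partner in the same triple helix, had ratios of 0.28, 0.03, 0.09 and 0.02 and a mean of 0.11 ± 0.12 (95% interval -0.02 to 0.23, adjusted p 0.207). The pair is read from opposite strands with starts 21 bases apart, and both had their largest ratio on array 1. Lum, Loxl1 and Col4a1 were the 3 tested matrix genes whose intensities did not overlap between genotypes, a pattern that 9.02% of all genes showed in that direction. None was lower without overlap, against 6.2% of all genes. These counts are by brightest probe. Among the dimmer tested probes, a Col25a1 probe was lower and a Col4a6 probe higher without overlap.

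The laminin chains Lama2, Lama4, Lama5, Lamb1, Lamb2 and Lamc1, found at endothelium and astrocyte endfeet, were not called. Lama2 was at 0.09 ± 0.11, Lama4 at 0.03 ± 0.14 and Lama5 at 0.08 ± 0.14. Lamb1 and Lamb2 stood at 0.16 ± 0.09 (adjusted p 0.0625) and 0.16 ± 0.12 (adjusted p 0.0885), and Lamc1 at 0.09 ± 0.09. Perlecan (Hspg2), the heparan sulfate proteoglycan of basement membranes, was at 0.03 ± 0.14 (95% interval -0.11 to 0.16). The epithelial chain Lamb3 had the lowest mean of the class, -0.14 ± 0.25.

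Among 18 tested genes of the other collagens, 1 rose, 1 fell and 16 did not pass. Col6a2, a chain of the beaded filaments of type VI collagen, had ratios of 0.10, 0.25, 0.14 and 0.23 and a mean of 0.18 ± 0.07 (adjusted p 0.0349), a call lost with any 1 array left out (highest adjusted p 0.135). Col6a1, next to it on chromosome 10 and part of the same molecule, stood at 0.08 ± 0.11 (adjusted p 0.298), and the third chain, Col6a3, at 0.07 ± 0.14. Col16a1, a fibril-associated collagen, was the matrix gene that fell. Its intensities were 1850, 1841, 2424 and 2852 in Ndrg2-/- samples, against 2129, 2236, 2724 and 3189 in wild-type samples, with a mean ratio of -0.20 ± 0.05 (adjusted p 0.0217). The Ndrg2-/- sample was the dimmer one on each array, but both genotypes were brighter on arrays 3 and 4 and the groups overlapped. That call was lost without array 1, 2 or 3 (highest adjusted p 0.0954). Under median centring, which called 59.4% of all probes higher, the ratio turned to 0.16 and was called higher (adjusted p 0.0244). It stayed below the median of all genes in that run.

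The neuronal transmembrane collagen gene Col25a1 spread widest of this class, with 0.75, 0.25, -0.29 and 0.05 on arrays 1 to 4 and a mean of 0.19 ± 0.44 (adjusted p 0.396). Col15a1, Col4a3, Col10a1, Col13a1, Col17a1, Col28a1, Col6a5 and Col6a6 were too dim as well, and with Lox and Tnc they make the 10 untested genes.

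Set side by side, the proteoglycans had the highest median of the 5 classes on each array. The median ratio of the small leucine-rich proteoglycans was 0.42, with 0.44, 0.43, 0.20 and 0.60 on arrays 1 to 4. For elastic fibre and glycoprotein genes it was 0.22, with 0.27, 0.19, 0.10 and 0.42. Basement membrane genes had a median of 0.09, with array medians of 0.12, 0.03, 0.11 and 0.21, and fibrillar collagens 0.07, with 0.18, 0.08, 0.08 and 0.10. The remaining collagens had a median of -0.0042, with array medians of -0.03, 0.01, -0.04 and 0.03. All 62 matrix genes had a median of 0.09, against 0.01 for all genes tested.

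The difference between class medians was taken on each array and is given without a test, since the genes were chosen with results of these data known. Proteoglycans exceeded basement membrane genes by 0.33, 0.41, 0.09 and 0.39 (mean 0.31 ± 0.15) and fibrillar collagens by 0.27, 0.35, 0.12 and 0.50 (mean 0.31 ± 0.16), above 0 on all 4 arrays. Fibrillar collagens differed from basement membrane genes by 0.06, 0.05, -0.02 and -0.11, with no 1 direction. The fibrillar median hides a split, because types I and III stood at 0.50 to 0.52 and the other 8 chains between -0.19 and 0.18.

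**Figure D2:**
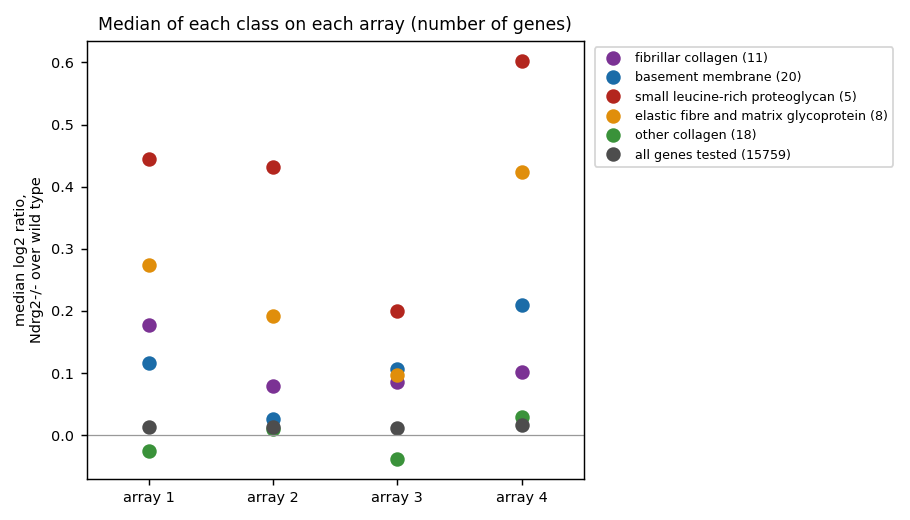
Median log2 ratio (Ndrg2-/- over wild type, y axis) of each class on each of the 4 arrays, with the number of tested genes in the legend. The 5 proteoglycan genes are the highest class on each array (0.44, 0.43, 0.20 and 0.60), and all genes tested lie near 0.

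Levels of the genes that rose also varied between samples of 1 genotype, and in a shared order. Among the 16 genes, the brightest wild-type sample was that of array 3 in 15 (93.8%), against 18.6% of all genes tested, and the dimmest was that of array 1 in 14 (87.5%), against 27% of all genes. In Ndrg2-/- samples, arrays 3 and 4 were both brighter than arrays 1 and 2 in 15 of 16 genes (93.8%), against 23% of all genes, and in wild-type samples the same held in 12 (75%), against 21.1%. The ratio of the brightest to the dimmest wild-type sample had a median of 1.49 over the 16 genes, against 1.14 over all genes, and reached 2.38 for Col1a1. The median fold between genotypes over the same genes was 1.29. These medians are unlike measures, a range over 4 samples and a mean over 4 arrays, so neither is called the larger. Levels per channel also carry effects of an array that both of its channels share. The calls rest on the pairing within arrays. When the channels were treated as 8 unpaired samples, 1 matrix gene passed, Lum (adjusted p 0.0457). The smallest ratio of the 4 lay on array 3 in 10 of the 16 genes (62.5%), against 31.2% of all genes called higher, and the largest on array 4 in 8 (50%), against 25.9%. The 46 tested matrix genes that were not called higher spread less, with a median of 1.24 between wild-type samples. Intensities per channel depend on the scaling between arrays, which gave all arrays the same average distribution.

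**Figure D3:**
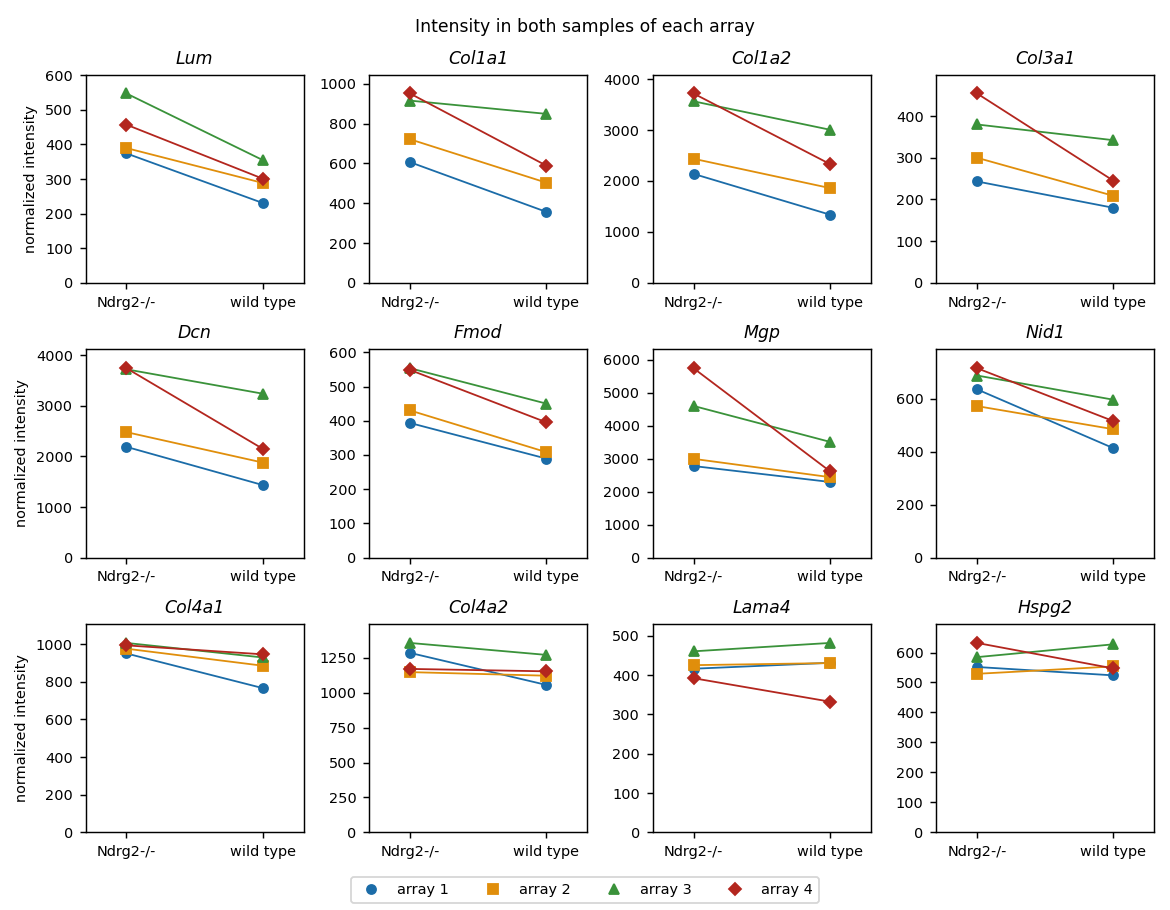
Normalized intensity (y axis, linear from 0) of 12 matrix genes in the Ndrg2-/- sample (left) and the wild-type sample (right) of each array, joined by a line per array. For Col1a1, Col1a2 and Dcn the wild-type sample of array 3 is brighter than the Ndrg2-/- samples of arrays 1 and 2, while the Lum samples of the genotypes are apart (374 to 547, against 231 to 355).

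Of 12 genes with several tested probes, 7 had probes that differed in sign or in call. Col4a6 was the widest apart among those with a call: its brighter probe stood at 0.07 ± 0.09 (adjusted p 0.325) and the other at 0.38 ± 0.14 (adjusted p 0.0108). For Col18a1, which yields endostatin, the probes were at 0.23 ± 0.17 (adjusted p 0.0599) and 0.27 ± 0.08 (adjusted p 0.0136), alike in size. The second probe of Loxl1 was at 0.20 ± 0.15 (adjusted p 0.0738), lower than the first, and that of Col16a1 at -0.04 ± 0.04 (adjusted p 0.529), so neither repeated the call. The 4 probes of Col25a1 lay between -0.15 and 0.19, and those of Lama3 (0.05 and -0.08) and Col20a1 (-0.03 and 0.01) had opposite signs, all uncalled. Of the genes that rose, Loxl1 was the single one with another tested probe, so the other 15 rest on 1 probe each.

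**Figure D4:**
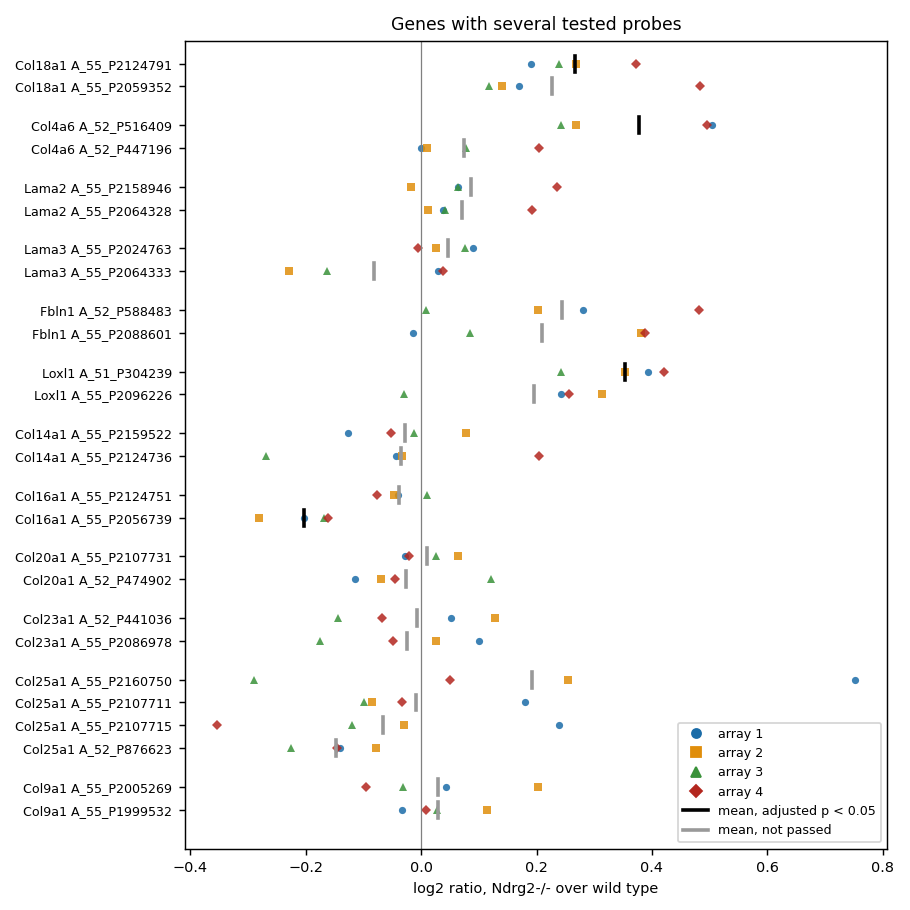
Log2 ratio (Ndrg2-/- over wild type, x axis) of each tested probe of the 12 matrix genes with several tested probes, with the 4 arrays as markers and the mean as a bar, black where the adjusted p was under 0.05. The probes of Col4a6 stand at 0.38 and 0.07 and those of Col16a1 at -0.04 and -0.20.

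Genes that process, cross-link, bind or degrade collagen were counted from lists. These counts stand beside 9.1% of all genes tested that rose and 5.84% that fell. Of 24 tested genes of collagen biosynthesis and cross-linking, 3 rose, 1 fell and 20 did not pass, with a median of 0.08. The procollagen C-proteinase enhancer Pcolce rose by most, with 0.54, 0.38, 0.23 and 0.51 on arrays 1 to 4 and a mean of 0.42 ± 0.14 (adjusted p 0.00792), and it passed with each array left out. Adamts2, which removes the N-propeptide of procollagen, rose to 0.31 ± 0.13 (adjusted p 0.0172) and the lysyl hydroxylase gene Plod3 to 0.23 ± 0.05 (adjusted p 0.0167), both lost without array 1 or 2 (highest adjusted p 0.0794 and 0.0723). The C-proteinase itself, Bmp1, fell to -0.19 ± 0.04 (adjusted p 0.0237), a call lost with any 1 array left out (highest adjusted p 0.0915). Under median centring Bmp1 turned to 0.23 and was called higher (adjusted p 0.00150), as 59.4% of all probes were. It stayed below the median of all genes in that run. So the enhancer and the enzyme it assists moved in opposite directions after loess.

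Of 18 tested matrix receptor genes, 3 rose, 1 fell and 14 did not pass, with a median of 0.10. Itga11, the integrin alpha chain of a collagen receptor of fibroblasts, had ratios of 0.54, 0.21, 0.51 and 1.27 and a mean of 0.63 ± 0.45 (adjusted p 0.0343). It was highest on array 4, as Mgp was, stood at 0.42 without that array and still passed, and was lost without array 1, 2 or 3 (highest adjusted p 0.0843). Itgb5 was at 0.21 ± 0.08 and the hyaluronan receptor Cd44 at 0.16 ± 0.03, and the dystroglycan gene Dag1, a laminin receptor, fell to -0.18 ± 0.06. These 3 calls were lost with any 1 array left out (highest adjusted p 0.0868, 0.118 and 0.101). Under median centring Dag1 turned to 0.17 and was called higher (adjusted p 0.00758), as 59.4% of all probes were. It stayed below the median of all genes in that run.

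Among 15 tested matrix proteases and inhibitors, 1 rose and 1 fell, with a median of 0.01. The fibroblast protease gene Fap fell to -0.39 ± 0.07 (adjusted p 0.00354) and passed with each array left out, in the direction opposite to the collagens I and III. Sparc, a collagen-binding glycoprotein, rose to 0.15 ± 0.04 (adjusted p 0.0432), lost with any 1 array left out (highest adjusted p 0.138). Of 15 tested genes of the perineuronal and brain matrix, the hyaluronan-based matrix of the tissue itself, 1 rose and 14 did not pass, with a median of 0.02. That gene was the Sparc relative Sparcl1, made by astrocytes, at 0.29 ± 0.04 (adjusted p 0.00679).

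Markers of other cells were read beside these values, where 9.1% of all genes tested rose and 5.84% fell. Intensities summed over all genes tested were 68853100 to 70611400 in Ndrg2-/- samples, against 66568700 to 66861300 in wild-type samples. Summed levels of a list thus start somewhat higher in Ndrg2-/- samples. Of 22 tested meningeal fibroblast markers that are not matrix genes of the set, 13 rose, none fell and 9 did not pass, with a median of 0.25 and array medians of 0.28, 0.22, 0.17 and 0.42. Their summed intensity was 17995, 18805, 23925 and 23587 in Ndrg2-/- samples, against 13764, 15761, 21472 and 18407 in wild-type samples. The order of the wild-type arrays, lowest on array 1 and highest on array 3, was that of the summed fibrillar collagens, at 4600, 5040, 6535 and 6907 in Ndrg2-/- samples, against 3506, 4142, 5886 and 4883 in wild-type samples. The summed proteoglycans had the same wild-type order, at 3969, 4379, 6192 and 6271 in Ndrg2-/- samples, against 2798, 3334, 5402 and 3965 in wild-type samples. The highest ratios of the list were those of the thrombomodulin gene Thbd (0.55 ± 0.37, adjusted p 0.0302) and of the forkhead gene Foxc2 (0.52 ± 0.25, adjusted p 0.0141), both at their lowest on array 3 (0.01 and 0.17). Thbd was lost without array 1, 2 or 4 and Foxc2 without array 1 or 2. Wild-type sums were also lowest on array 1 and highest on array 3 for perivascular macrophage, mural, endothelial, choroid plexus and oligodendrocyte markers. The same held for basement membrane genes, elastic fibre and glycoprotein genes and the other collagens, so this pattern was also seen outside fibroblast markers. The count of 13 was 7 without array 1, 5 without array 2, 11 without array 3 and 10 without array 4. The share of all probes called higher fell too, from 7.39% to 2.18%, 1.57%, 2.73% and 5% in these runs. Of 24 markers on the list, Twist1 and Dpep1 were too dim to be tested. In these bulk samples a different number of cells of a type and a different amount of RNA per cell cannot be told apart, and the part of meningeal cells in the matrix values was not tested.

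Perivascular macrophage markers rose in 6 of 7 tested genes, with a median of 0.27 and array medians of 0.20, 0.28, 0.25 and 0.44. Their summed intensity ran from 1994 to 2828 in Ndrg2-/- samples and from 1646 to 2300 in wild-type samples, and Cbr2 (0.36 ± 0.08) and Pf4 (0.35 ± 0.11) were the highest. The count of 6 was 4 without array 1, 2 without array 2, 2 without array 3 and 4 without array 4. These runs called 2.18%, 1.57%, 2.73% and 5% of all probes higher, against 7.39% with all arrays. Endothelial markers, which share the vascular basement membrane, rose in 3 of 16 tested genes and had a median of 0.03, and their summed intensity of 46558 to 51856 in Ndrg2-/- samples overlapped the 46791 to 52276 of wild-type samples.

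Mural cell markers rose in 1 of 13 tested genes, with a median of 0.12 and array medians of 0.11, 0.01, 0.07 and 0.29. The smooth muscle genes Acta2 (0.28, 0.26, 0.07 and 1.51) and Cnn1 (0.14, 0.22, -0.14 and 1.78) were high on array 4, the array on which Mgp stood at 1.13 and Itga11 at 1.27, and neither was called (adjusted p 0.138 and 0.257). Choroid plexus markers rose in 1 of 8 (median 0.12) and neuronal markers in 2 of 12 (median 0.06), where 9.1% of all genes tested rose. Astrocyte markers rose in 2 of 12 (median 0.17), oligodendrocyte markers rose in 1 and fell in 1 of 9 (median -0.02), and blood genes fell in 1 of 8 (median -0.08, with array medians of -0.39, -0.07, -0.10 and 0.29). The summed intensity of astrocyte markers was 259641 to 272429 in Ndrg2-/- samples, against 232463 to 239395 in wild-type samples. The genotypes did not overlap there, as they did not in the sum over all genes tested. The labelled tissue carried its defining markers, as 12 of 12 neuronal and 12 of 12 astrocyte markers were well above background.

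**Figure D5:**
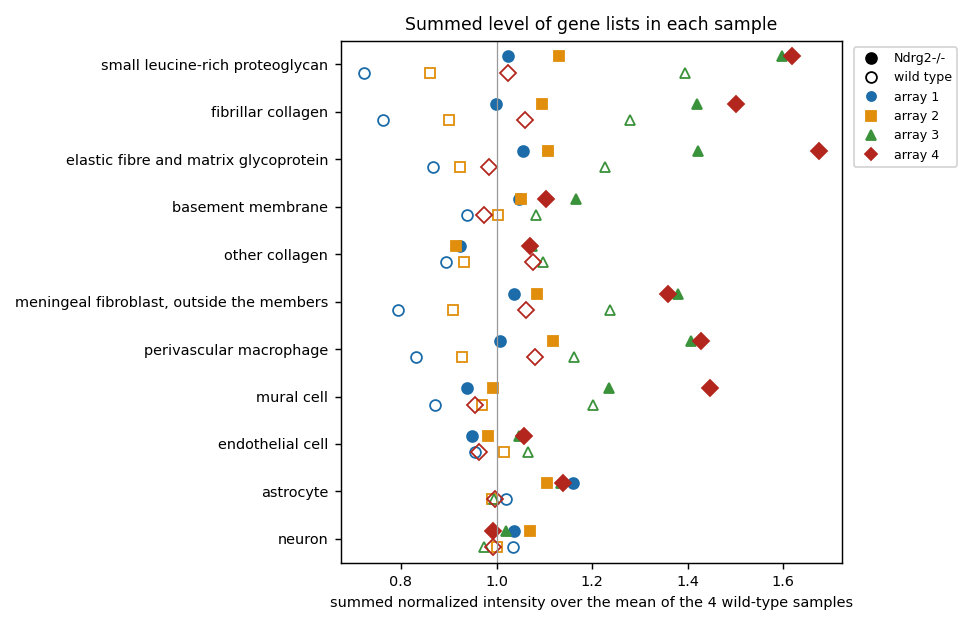
Summed normalized intensity of each gene list over the mean of its 4 wild-type samples (x axis), with filled markers for Ndrg2-/- samples and open markers for wild-type samples, a marker shape and colour per array. Proteoglycans, fibrillar collagens, elastic fibre and glycoprotein genes, other collagens, meningeal fibroblast markers and perivascular macrophage markers share the wild-type order of the arrays. The genotypes overlap in each of these lists and in endothelial markers. In astrocyte markers the genotypes do not overlap. Intensities summed over all genes tested were also higher in Ndrg2-/- samples, without overlap.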

How the data were processed

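Cortical RNA of Ndrg2-/- and wild-type mice was measured on 4 dual-colour Agilent arrays, with 200 ng of RNA per labelling, per the labels' protocols, although that labelling text names plant shoots as the source and may come from another study. Images were extracted by the authors in Agilent Feature Extraction, whose version is 11.0.1.1 in the file headers but 10.7.3.1 in the submitters' processing notes. Each spot has a median pixel intensity and a local background per channel, per the file headers, which also give log10 ratios of the processed signals, red over green. The authors also deposited log2 ratios, which by their values are the same ratio of processed signals.

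Intensities were background corrected with normexp (offset 50) and normalized by loess within arrays, with 1377 control spots at weight 0, in limma 3.58.1 under R 4.3.3. The design did not name the pixel statistic, and medians, which the files hold, were used. Over all arrays, 802 outlier spots were left out, no matrix probe was saturated, and spots of 1 probe were averaged (399 probes). The test took 27664 of 39429 probes, those with at least 1 channel well above background on every array. An intercept-only lmFit and eBayes model (residual degrees of freedom 3, prior 4.47) gave p-values, adjusted by Benjamini-Hochberg over all tested probes. The fit was tested on simulated data. Symbols came from matching probe accessions to RefSeq genes of GRCm38.p6 (27427 probes), and the array's own coordinates are not given. Each gene is represented by its brightest tested probe (15759 genes). Intensities per sample are after loess and Aquantile scaling. Intervals are at 95%.

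Samples of 1 number share an array, and the within-array ratio pairs them. The deviations of same-numbered samples from their genotype means correlated at 0.377 to 0.522, against at most 0.280 for other numbers. Both channels read the same spots, which adds to this correlation. The arrays shared 1 slide and 1 scan. Batches of dissection, extraction or labelling are not given in the sources used here, and across probes arrays 1 and 2 (r = 0.688) and arrays 3 and 4 (0.547) correlated more closely than the other pairs (0.356 to 0.461). Alternatives covered background, normalization, offset, filter, deposited values, pairing, the spread estimate, the probe chosen for a gene and each replicate left out.

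The matrix genes, the lists and the tests were chosen with earlier results of these data known. The text names Ndrg2 and a fixed set of 16 leading matrix genes. It also names the called genes of each class and list by size, genes whose probes disagree, and up to 2 genes of each marker list. Names added to show each class in full, or to describe promoters, were chosen after their values were seen. Figures and promoter counts used Python 3.11.15, pandas 2.3.3 and matplotlib 3.10.9. Protein sequences and probe sequences were not analysed here.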

Additional observations from a re-analysis of the deposited data

Results flagged for a closer look

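On 1 array, 9 named genes had a ratio far from the other 3 arrays (by Dixon's test of the gap over the range), out of 71 genes and probes screened. Chance marks about 1 in 20 such groups. Among matrix genes these were Mgp on array 4 (1.13), Col18a1 on array 4 (0.48) and Lama1 on array 2 (-0.0059). Among genes of other lists they were the smooth muscle gene Acta2 on array 4 (1.51), the laminin receptor gene Dag1 on array 4 (-0.27), the astrocyte water channel gene Aqp4 on array 1 (0.61), Sparcl1 on array 2 (0.34) and Sparc on array 1 (0.22). Ndrg2 itself was lowest on array 1 (0.11).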

How the results depend on the processing

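The 16 matrix genes that rose kept their sign under each alternative run, but most calls did not hold throughout. With the scanner software's processed signals, and with the deposited log2 values, 5 genes (8 probes) and 1151 of all probes rose. Median centring moved the median of all genes to 0.28 and gave 38 of the 62 genes higher and 11 lower. By probe, 42 of 76 were higher and 17 lower, against 16420 (59.4%) and 5518 (19.9%) of all probes. The share of matrix probes called higher was thus below that of all probes in this run. The medians of fibrillar, basement membrane and proteoglycan genes were 0.15, 0.37 and 0.71, the fibrillar one below that of all genes. With no background subtraction 2 genes and 2 probes fell, and with an offset of 16, 2 probes fell. Leaving out 1 array gave 4 to 11 genes and 6 to 14 probes higher and 0 to 1 lower, with 435 to 1384 of all probes higher and 212 to 1001 lower, and a median of the other collagens of -0.0082 to 0.028. Treating the channels as unpaired samples, with no replicate block, gave 1 gene and 1 probe higher, 0 lower, and 633 and 335 of all probes higher and lower. Requiring most of a gene's probes to pass left 0 genes lower in limma (4 where the same rule took an unadjusted p under 0.05).

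Signs turned for small or lower ratios. Median centring called 59.4% of all probes higher. In that run Col16a1, Bgn, Dag1 and Bmp1 stayed below the median of all genes, as after loess, and Syt1 and Ermn stood above it. Of these genes, all but Bgn were called higher there. Under median centring Col16a1 was at 0.16 and its other probe at 0.20, Bgn at 0.16, Dag1 at 0.17, Bmp1 at 0.23, Syt1 at 0.42, Ermn at 0.29, the second Loxl1 probe at -0.091 and the second Col20a1 probe at -0.025. That Col20a1 probe was also at -0.022 with no background subtraction and at -0.070 with the processed signals or deposited values. With 1 array left out it ran from -0.0081 to 0.023, the first Col20a1 probe from -0.076 to 0.0022, the dimmer Col25a1 probes from -0.072 to 0.021 and from -0.17 to 0.030, and Bgn from -0.11 to 0.085. The cause of these shifts was not tested.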
